A study of Mus musculus with 25 samples.

Results

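Livers that differed in both factors of a crossed layout, diet and genotype, were compared across all expressed genes. HFD_p53KO (7 libraries) was male C57BL6/J mice of genotype p53KO on a high-fat diet (HFD), and Control_Rosa26KO (6 libraries) was male C57BL6/J mice of genotype Rosa26KO on control diet, all aged 24 months. These are 13 of the 25 liver libraries of the series. The other 12, 6 of HFD_Rosa26KO (Rosa26KO on HFD) and 6 of Control_p53KO (p53KO on control diet), are the single-change groups. They entered the same model and were used to split the combined difference into a diet step and a genotype step. All 4 groups share sex, strain, tissue and age, and all carry a knockout label, since the comparison genotype is itself a knockout at Rosa26, a locus that is widely used as a neutral target. The labels do not say how either knockout was made, in which cells, or for how long the diets were fed. Nothing in the labels states that each library came from a separate animal, so the p-values measure the spread between these samples.

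The table lists 24537 genes, of which 14133 passed the filter on low counts, and directions below are HFD_p53KO over Control_Rosa26KO. Levels are CPM, read counts scaled to a common library size after TMM normalisation, and a gene was called when its edgeR adjusted p (quasi-likelihood test, Benjamini-Hochberg over all 14133 genes) was under 0.05. The 13 libraries held 16611754 to 21501281 counts each. The hepatocyte transcript Alb was abundant in all of them (36511 to 130670 CPM), and the adipocyte transcripts Adipoq and Lep were at or near 0, with Lep at 0 in all 13. No columns were identical, and the most similar libraries still differed beyond counting noise. On the first principal component of the 1000 most variable genes (52.3% of the variance) HFD_p53KO lay at 13.4 ± 26.5 (SD, n = 7) and Control_Rosa26KO at -15.6 ± 19.1 (SD, n = 6). Control_Rosa26KO 2 (20.7) lay among the HFD_p53KO libraries, and HFD_p53KO 5 (-11.6) and HFD_p53KO 7 (-33.2) lay on the control side. The labels number the libraries consecutively, and the groups recur in the same order in 3 stretches of these numbers, with HFD_p53KO 5, 6 and 7 in the last. Whether the stretches were handled apart is not stated.

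The liver makes fatty acids from sugar through a chain of cytosolic enzymes, and cholesterol through the mevalonate pathway. Both chains are driven by SREBP transcription factors, and the fatty acid chain also by ChREBP (gene Mlxipl). Dietary fat and cholesterol are known to lower these programmes, while fatty acids activate the nuclear receptors PPARA and PPARG, which drive fat burning and fat storage. p53, encoded by Trp53, is a stress-activated transcription factor that induces cell cycle inhibitors and metabolic regulators, and it has been linked to lipid metabolism in the liver. Interferon-stimulated genes encode antiviral and immune proteins and are switched on by interferon through STAT and IRF factors.

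Trp53 was checked first. Its level ran from 19.6 through a median of 26.1 to 31 CPM in HFD_p53KO, and from 31.6 through 35.7 to 43.7 CPM in Control_Rosa26KO. Every HFD_p53KO library was below every Control_Rosa26KO library, but none was near 0. The log2 fold change was -0.50 (SE 0.14, edgeR adjusted p = 0.046), a level 0.708 times that of Control_Rosa26KO. In a two-sided exact permutation test of the difference in mean CPM (26 ± 4.47, SD, n = 7, against 36.8 ± 4.80, SD, n = 6) the p was 0.001166 over 1716 splits of 7 against 6. The edgeR call was lost in 14 of 22 alternative settings, with the adjusted p reaching 0.0995 without HFD_p53KO 4. Trp53 lies at chr11:69580359-69591873 (GRCm38, plus strand, protein-coding), and its exons overlap no other annotated gene. The counts do not show which part of the gene the remaining reads cover.

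Of the p53 targets, Cdkn1a and Mdm2 are the best known. Cdkn1a, which encodes the cell cycle inhibitor p21, ran from 7.52 through 37.1 to 89.7 CPM in HFD_p53KO and from 16.2 through 28.2 to 88.9 CPM in Control_Rosa26KO. The groups overlapped across nearly the whole range. The exact permutation p was 0.664, the edgeR log2 fold change 0.27 (SE 0.51, edgeR adjusted p = 0.807), and without HFD_p53KO 1 the log2 fold change was -0.018. Mdm2, the ubiquitin ligase that degrades p53, ran from 32.2 through 37.5 to 42.7 CPM in HFD_p53KO against 29.7 through 34.5 to 36.8 CPM in Control_Rosa26KO, with an exact permutation p of 0.0863 (n = 7 and 6), which was 0.0303 without HFD_p53KO 6. Of 40 p53 target genes tested, 1 was called (2.5% higher, against 1.94% of all genes), Sesn2, which encodes a stress-induced regulator of nutrient signalling. Sesn2 rose, from 5.62 through 7.55 to 11.4 CPM in Control_Rosa26KO to 9.56 through 13.1 to 16.4 CPM in HFD_p53KO (log2 fold change 0.76, SE 0.16, edgeR adjusted p = 0.0106). edgeR called 0 of the 40 lower, with 4 higher and 0 lower at an unadjusted p under 0.05, 3 and 0 in DESeq2, and 11 and 0 in limma voom, and Sesn2 was called in all 22 alternatives. The median log2 fold change of the list was 0.13, against 0.0087 over all genes tested. Its median diet step in Rosa26KO was 0.30, and its median genotype step was -0.11 on HFD and -0.19 on control diet.

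**Figure D1:**
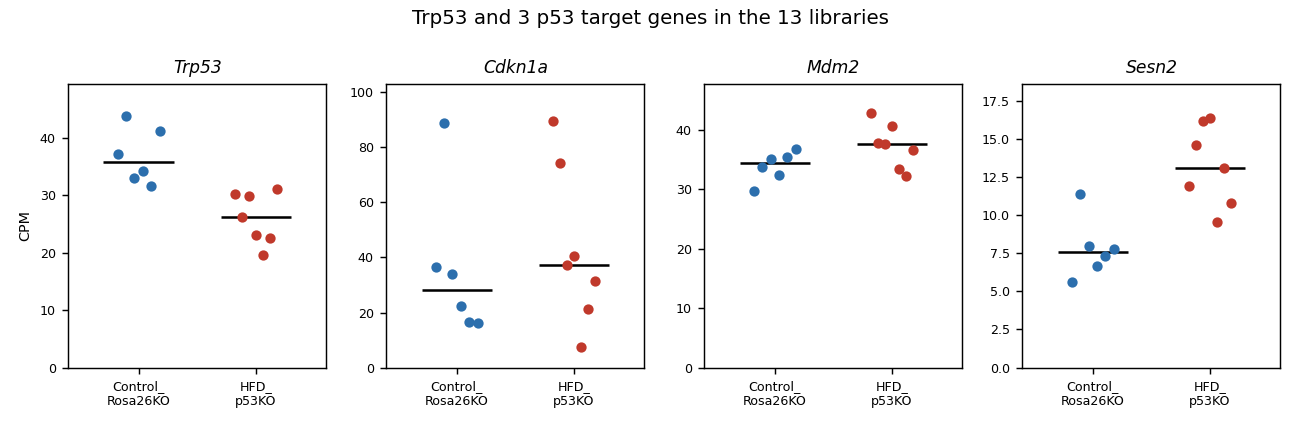
Levels of Trp53, Cdkn1a, Mdm2 and Sesn2 in CPM (linear axes from 0), with 1 point per library in Control_Rosa26KO (blue, 6) and HFD_p53KO (red, 7) and a line at the group median. Trp53 does not overlap between the groups (highest HFD_p53KO library 31, lowest Control_Rosa26KO library 31.6), while Cdkn1a overlaps over nearly its whole range.

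Across the transcriptome 651 genes were called, 4.61% of those tested, with 274 higher (1.94%) and 377 lower (2.67%). The rises had a median log2 fold change of 0.52 and the falls of -0.75, and 61 rises and 112 falls were at least 2-fold. In 96 genes (0.679%) every HFD_p53KO library was above every Control_Rosa26KO library, and in 143 (1.01%) every one was below. Of the 651 called genes, 196 were also free of overlap. Without HFD_p53KO 7 the count was 1288, without Control_Rosa26KO 2 it was 1082, and without HFD_p53KO 5 or 6 it was 710 or 554. Without any 1 of Control_Rosa26KO 1, 3, 4, 5 and 6 or HFD_p53KO 1, 2, 3 and 4 it lay between 326 and 424. Within the 3 stretches of library numbers the median was 0.59, 0.65 and 0.48 for the genes called higher and -0.77, -0.79 and -0.60 for those called lower, against 0.016, 0.014 and -0.012 over all genes tested. The called genes were chosen over these same libraries, so the within-stretch values are a description.

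**Figure D2:**
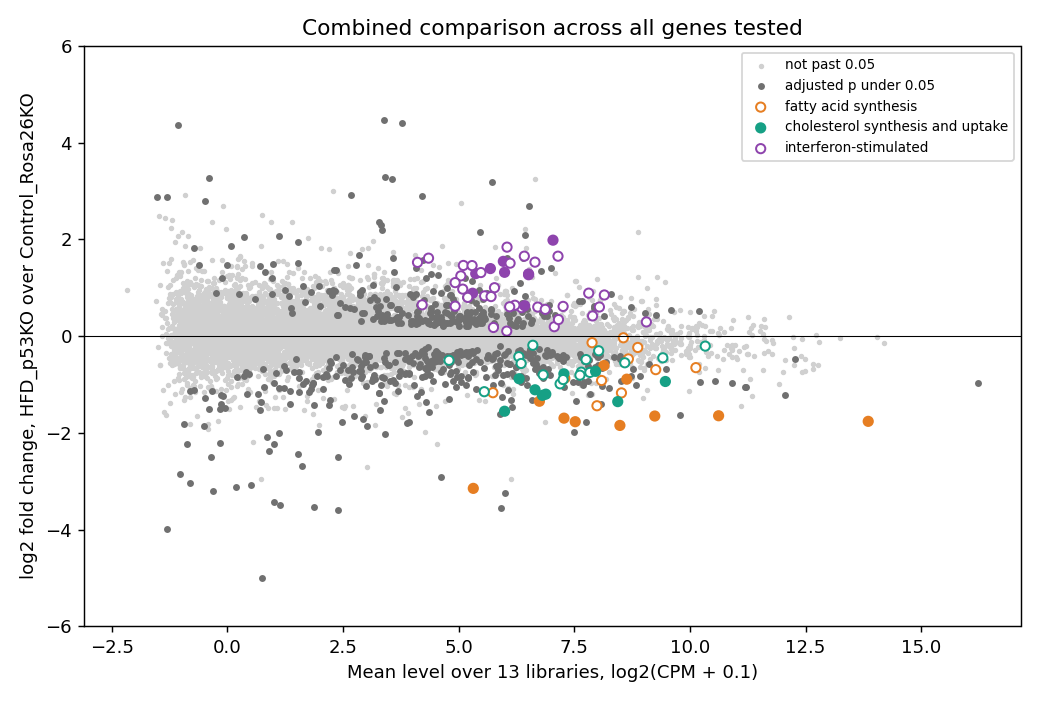
Each point is 1 of the 14133 genes tested, with its mean level over the 13 libraries on the x axis, log2(CPM + 0.1), and its log2 fold change, HFD_p53KO over Control_Rosa26KO, on the y axis. Dark grey points were called, and coloured circles are list members, filled where called: all 21 fatty acid synthesis genes and all 25 cholesterol genes lie below 0, and all 43 interferon-stimulated genes lie above.

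Fatty acid synthesis fell along its length. Of 21 listed genes tested, 11 were called lower (52.4%, against 2.67% over all genes), all 21 were below 0, and the median log2 fold change was -1.17. The called genes cover the supply of acetyl-CoA (Slc25a1, Acly, Acss2), its carboxylation (Acaca, Acacb), chain synthesis (Fasn), elongation and desaturation (Elovl6, Scd1), a cytosolic ketone-activating enzyme (Aacs), the lipid-droplet hydrolase Pnpla3 and the regulator Mlxipl. Without Control_Rosa26KO 4, the library with the highest Acly and Fasn, 7 of the 21 were called.

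Acly, which cleaves citrate to acetyl-CoA, ran from 195 through 321 to 368 CPM in HFD_p53KO and from 668 through 887 to 1551 CPM in Control_Rosa26KO. The groups were far apart and did not overlap, and the log2 fold change was -1.65 (SE 0.30, edgeR adjusted p = 0.00399). Acss2, which makes acetyl-CoA from acetate, fell from a median of 585 CPM (375 to 789) to 159 CPM (71.3 to 266), a log2 fold change of -1.85 (SE 0.32, edgeR adjusted p = 0.00307). Exons of Acss2 overlap genes on the opposite strand (Acss2os, Ggt7 and Gss), and no source names the strand setting of the counting. Of the 106 genes eligible to be named, 33 have exons that overlap another annotated gene, on the opposite or the same strand. The counts of these genes are also uncertain, for same-strand overlaps under any strand setting. Those described here are Cdkn1a, Elovl6, Pnpla3, Mlxipl, Fdps, Lss, Tm7sf2, Plin4, Pltp, Acsl5, Herc6, Gbp7, Tgtp1, Anxa2, Gls2, Clec4g, Bmp6, Ecm1, Cyp2a4, Cyp2c29, Cyp2c55, Abcb11, Tulp4, Arel1, Slc7a4, Themis, Rpph1 and Rmrp.

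Acacb, the mitochondrial acetyl-CoA carboxylase whose product restrains fat burning, ran from 34 through 90.5 to 144 CPM in HFD_p53KO against 236 through 265 to 448 CPM in Control_Rosa26KO. The fall, again without overlap, was -1.77 on the log2 scale (SE 0.30, edgeR adjusted p = 0.00265). Fasn, the fatty acid synthase, fell from a median of 1968 CPM (1459 to 4715) to 727 CPM (388 to 1211), a log2 fold change of -1.65 (SE 0.40, edgeR adjusted p = 0.0199). The Fasn call was lost in 2 of 22 alternatives, with an adjusted p of 0.0646 in edgeR without Control_Rosa26KO 4.

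Scd1, the main hepatic fatty acid desaturase, was among the most abundant transcripts of this group, at 15940.3 to 30083 CPM (median 23632) in Control_Rosa26KO. In HFD_p53KO it ran from 997 through 9202 to 11911 CPM. HFD_p53KO 5 and HFD_p53KO 6 held the lowest levels, far under the other 5 libraries, and no library overlapped the control range. The log2 fold change was -1.76 (SE 0.45, edgeR adjusted p = 0.0266), a call lost in 5 of 22 alternatives. Pnpla3, a SREBP- and ChREBP-responsive lipase of the lipid droplet, had the largest fall of the list, from a median of 55 CPM (28 to 201) to 9.61 CPM (3.13 to 12.5), a log2 fold change of -3.15 (SE 0.61, edgeR adjusted p = 0.00556). Its relative Pnpla5 fell by 3.43 on the log2 scale, from at most 6.8 CPM.

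Among the regulators of these genes, Mlxipl ran from 217 through 266 to 396 CPM in HFD_p53KO and from 298 through 548 to 653 CPM in Control_Rosa26KO, overlapping ranges, with a log2 fold change of -0.89 (SE 0.23, edgeR adjusted p = 0.0266, called in 14 of 22 alternatives). Srebf1, which encodes SREBP1, had a log2 fold change of -0.47 (edgeR adjusted p = 0.198) and was not called.

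Cholesterol synthesis and uptake genes were lower together. All 25 tested were below 0, 9 were called (36%, against 2.67% of all genes), and the median log2 fold change was -0.78. Called members include genes at the start of the pathway (Acat2), in its middle (Pmvk, Fdps, Lss), at its end (Tm7sf2, Ebp, Sc5d) and in sterol transport (Stard4). The SREBP2 gene itself, Srebf2, had a log2 fold change of -0.19 (edgeR adjusted p = 0.567) and was not called.

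Pmvk, a kinase of the mevalonate pathway, ran from 18.3 through 27.3 to 53.4 CPM in HFD_p53KO and from 75 through 95.9 to 128 CPM in Control_Rosa26KO, with no overlap. Its log2 fold change was -1.55 (SE 0.24, edgeR adjusted p = 0.00108). Tm7sf2, a sterol reductase late in the pathway, ran from 42.8 through 54.1 to 160.0 CPM against 127 through 171 to 204 CPM. HFD_p53KO 7, the highest of its group, lay inside the control range, HFD_p53KO 5 (104) below it, and the other 5 libraries lower still, at 59 CPM or less. The log2 fold change was -1.20 (SE 0.27, edgeR adjusted p = 0.0133).

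Fdps, which makes farnesyl pyrophosphate, was split between the same libraries, with HFD_p53KO 5 at 341 and HFD_p53KO 7 at 426 CPM and the others between 107 and 153 CPM, against 355 to 661 CPM in Control_Rosa26KO (log2 fold change -1.36, SE 0.29, edgeR adjusted p = 0.0114). Within the last stretch of library numbers the median of the list was -0.22, against -1.34 and -1.14 in the others. Without HFD_p53KO 7, 17 of the 25 genes were called, without HFD_p53KO 5, 16, and without Control_Rosa26KO 4, 4. In the plot of list levels by library, the fatty acid synthesis list separates all 13 libraries by group and the cholesterol list does not.

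**Figure D3:**
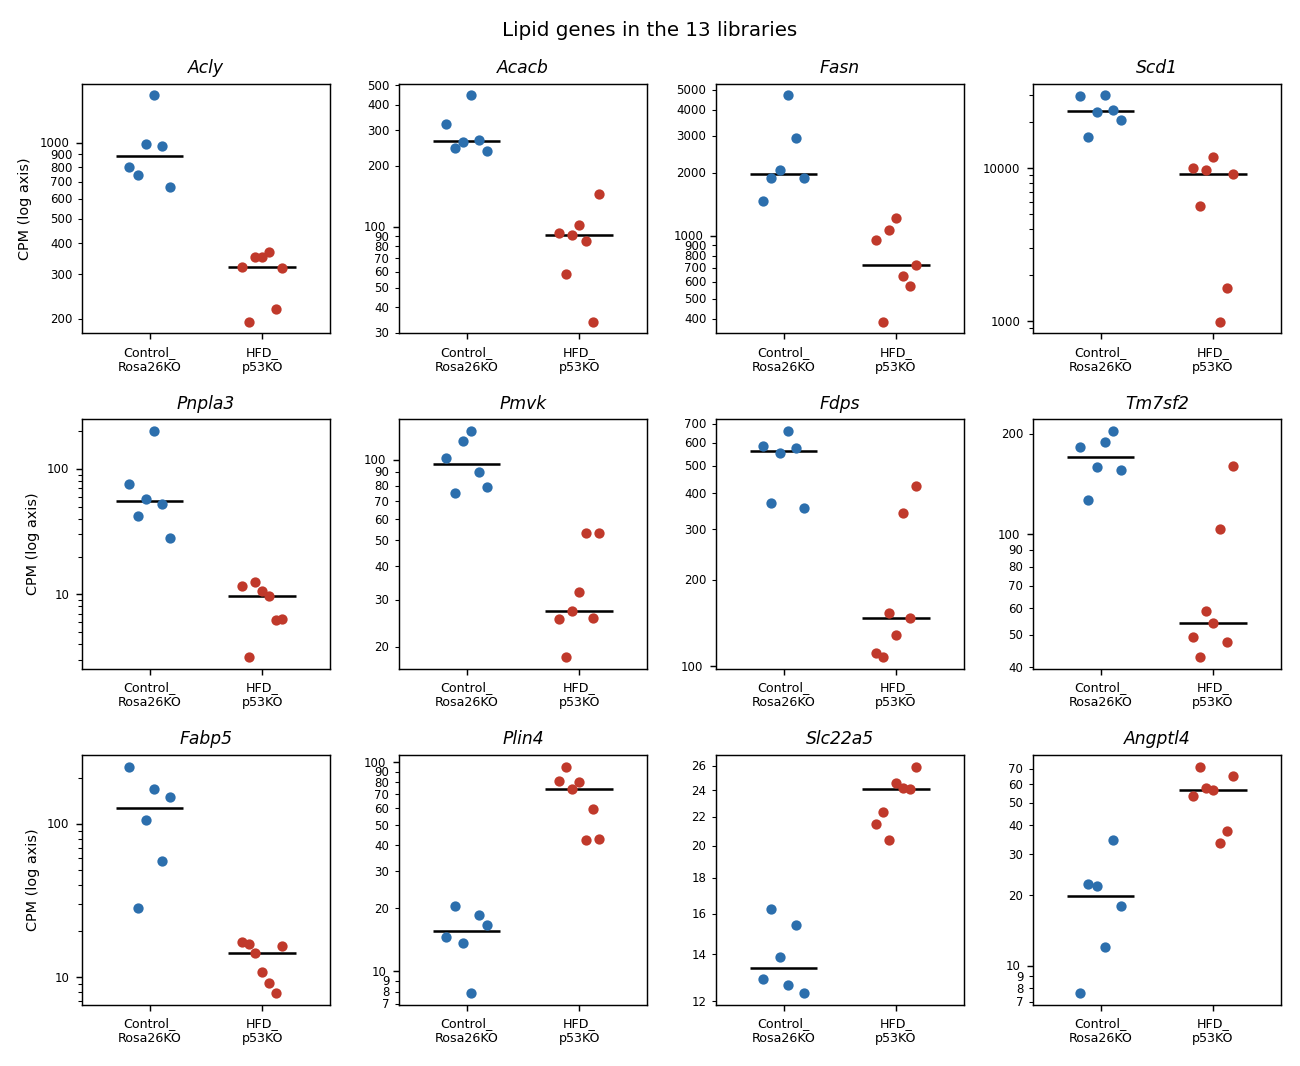
Levels of 12 lipid genes in CPM on log axes, with 1 point per library in Control_Rosa26KO (blue, 6) and HFD_p53KO (red, 7) and a line at the group median. Acly, Acacb, Fasn, Scd1, Pnpla3, Pmvk and Fabp5 are lower in all HFD_p53KO libraries, Plin4 and Slc22a5 are higher in all, and Fdps, Tm7sf2 and Angptl4 overlap.

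The sterol response element, which SREBP factors bind, was searched for in RefSeq promoter windows (GRCm38.p6, 250 bases before to 50 after each gene start) as TCACNCCAC on either strand. It was found in 1.24% of 32851 promoters, in 3.37% of 386 promoters of all genes called lower and in 1.04% of 288 promoters of those called higher. These shares were not tested. Among the called fatty acid and cholesterol genes, 16 of 20 had a window in the table, and 1 of their 18 promoters held it, at a start site inside Mlxipl. It is printed with the match in capitals as the only match among these 18 promoters. Mlxipl was also the only called regulator of the list. The window lies at chr5:135106730-135106789, plus strand, and the match starts 136 bases before that gene start.
Mlxipl: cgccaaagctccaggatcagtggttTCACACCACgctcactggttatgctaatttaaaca
A match is a run of letters and was not tested as a binding site, and a window without these letters says nothing of SREBP at the gene.

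Genes that take up and store fat moved in both directions. Of 21 uptake genes, 1 was called higher and 2 lower (4.76% and 9.52%, against 1.94% and 2.67% of all genes), the last being Fabp5 and Acsl5 (-0.82), which activates fatty acids. Of 21 lipid droplet genes, 2 were called higher and 1 lower (9.52% and 4.76%), and the median was 0.015. Plin4, which coats lipid droplets, ran from 42.2 through 74.6 to 95.1 CPM in HFD_p53KO and from 7.85 through 15.6 to 20.4 CPM in Control_Rosa26KO. All HFD_p53KO libraries were above all controls, and the log2 fold change was 2.15 (SE 0.32, edgeR adjusted p = 0.000639). Pparg, the nuclear receptor that drives fat storage, rose from a median of 16.8 CPM (12.8 to 20) to 30.3 CPM (18.1 to 39.2), a log2 fold change of 0.89 (SE 0.23, edgeR adjusted p = 0.0278, called in 17 of 22 alternatives). As a check for fat cells, summed adipocyte markers were 73.2 to 147 CPM in HFD_p53KO and 48.6 to 84.2 CPM in Control_Rosa26KO, with the defining markers Adipoq and Lep at or near 0.

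Of 38 fatty acid oxidation genes and PPARA targets, 3 were called higher (7.89%, against 1.94% of all genes), and 34 were above 0, with a median of 0.27. Without Control_Rosa26KO 1 or Control_Rosa26KO 4, 1 was called. Slc22a5, the carnitine importer, had the smallest p of all rises: it ran from 20.4 through 24.1 to 25.9 CPM against 12.3 through 13.4 to 16.3 CPM, without overlap (log2 fold change 0.74, SE 0.11, edgeR adjusted p = 0.000632). Angptl4, a PPAR target that blocks lipoprotein lipase, ran from 33.7 through 56.5 to 71.5 CPM against 7.6 through 20 to 34.5 CPM, ranges that just met (log2 fold change 1.47, SE 0.36, edgeR adjusted p = 0.0216). Cpt1a, which brings fatty acids into mitochondria, rose from a median of 312 CPM (256 to 428) to 472 CPM (405 to 680), a log2 fold change of 0.59 (SE 0.17, edgeR adjusted p = 0.043) that was called in 9 of 22 alternatives.

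Other lipid handling genes fell. Fabp5, a fatty acid binding protein that is also listed with macrophage markers, ran from 7.84 through 14.5 to 17.1 CPM in HFD_p53KO and from 28.4 through 127 to 236 CPM in Control_Rosa26KO. Its log2 fold change was -3.24 (SE 0.41, edgeR adjusted p = 0.000129), and every HFD_p53KO library was below every control. Gm2a, the lysosomal activator of ganglioside breakdown, fell from a median of 247 CPM (168 to 283) to 123 CPM (108 to 144), a log2 fold change of -0.95 (SE 0.11, edgeR adjusted p = 9.55e-05). The called members of the apolipoprotein and VLDL list, 3 of 20 (15%, against 2.67% of all genes), were all lower: Pltp (-1.34), a phospholipid transfer protein, Apom (-1.01), a carrier on HDL, and Tm6sf2 (-0.95), which supports VLDL lipidation. Without Control_Rosa26KO 1 or 5 or HFD_p53KO 1, 2, 3 or 4, 1 of them was called.

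Interferon-stimulated genes were higher as a group. All 43 tested were above 0, 8 were called (18.6%, against 1.94% of all genes), and the median log2 fold change was 0.89. At an unadjusted p under 0.05, 38 of the 43 were higher, and DESeq2 called 24. The count depended on single libraries: it was 35 without Control_Rosa26KO 2, 23 without HFD_p53KO 7 and 14 without HFD_p53KO 5, and between 2 and 5 without any 1 of Control_Rosa26KO 1, 3, 4, 5 and 6 or HFD_p53KO 1, 2, 3 and 4. In the list level by library, HFD_p53KO 1, 2, 3 and 4 lay highest, Control_Rosa26KO 2 next to them, and HFD_p53KO 5 and 7 nearest the other controls.

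Herc6, a ligase for the ubiquitin-like protein ISG15, was the steadiest member. It ran from 38.3 through 62.7 to 74.1 CPM in HFD_p53KO and from 17 through 22 to 34.1 CPM in Control_Rosa26KO, with no overlap, a log2 fold change of 1.29 (SE 0.21, edgeR adjusted p = 0.00153) and a call in all 22 alternatives. Gbp7, an interferon-induced GTPase, was also free of overlap (32.9 to 62.5 against 20.9 to 32.5 CPM, log2 fold change 0.89, SE 0.23, edgeR adjusted p = 0.0279). Gbp3 of the same family ran from 52.8 through 93.6 to 116 CPM against 14.4 through 26.9 to 58.4 CPM (log2 fold change 1.55, SE 0.37, edgeR adjusted p = 0.0176). Reads of related Gbp genes may not be fully separable in these counts.

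Oasl2, an antiviral OAS-family gene, had the largest change of the list and the widest spread. It ran from 67.8 through 256 to 285 CPM in HFD_p53KO and from 17.8 through 30.4 to 166 CPM in Control_Rosa26KO. Control_Rosa26KO 2 held the 166 and the other controls at most 37.8 CPM, and HFD_p53KO 5 and 7 were the lowest of their group. The log2 fold change was 1.98 (SE 0.55, edgeR adjusted p = 0.0402), called in 9 of 22 alternatives. Trim30a (1.4), Zbp1 (1.32), Tgtp1 (1.28) and Ddx58 (0.63), the last 2 of these a GTPase and the RNA sensor RIG-I, were the remaining calls.

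Beyond that list, Slfn4, a myeloid interferon-induced gene, rose from a median of 1.06 CPM (0.366 to 6.06) to 24.4 CPM (2.81 to 35.5), a log2 fold change of 3.24 (SE 0.74, edgeR adjusted p = 0.0143). Ubd, a ubiquitin-like modifier, rose from a median of 2.96 CPM (1.46 to 11.2) to 33.8 CPM (3.27 to 53), a log2 fold change of 2.89 (SE 0.70, edgeR adjusted p = 0.021). The class I gene H2-D1 rose by less (0.52, SE 0.13, edgeR adjusted p = 0.0279). Among immune cell markers edgeR called 0 of 22 T and NK cell markers (3 higher at an unadjusted p under 0.05, 0 in DESeq2, 3 in limma voom), 0 of 17 Kupffer cell markers (1 higher and 1 lower unadjusted, 1 lower in DESeq2, 5 higher and 1 lower in limma voom) and 0 of 16 neutrophil markers (1 higher unadjusted, 0 in DESeq2, 2 in limma voom). Above 0 were 19 of the T and NK markers (median 0.47), 10 of the Kupffer markers (0.090) and 15 of the neutrophil markers (0.49). Summed Kupffer markers were 559 to 1625 CPM in HFD_p53KO and 413 to 1419 CPM in Control_Rosa26KO. The defining Kupffer markers had lower medians in HFD_p53KO: Clec4f 76 against 110.7, Vsig4 34.4 against 58.3 and Timd4 2.88 against 6.48 CPM. Their ranges overlapped. Summed T and NK markers were 18.7 to 114 against 23.4 to 60.4 CPM. For neutrophil markers the sum was 138 to 3966 against 17.9 to 964 CPM. Of the defining neutrophil markers, Ly6g was at or near 0 in all 13. S100a8 was at 1.01 to 9.44 against 1.04 to 4.8 CPM (medians 2.68 and 2.23). S100a9 was at 1.55 to 17 against 1.46 to 7.29 CPM (medians 4.28 and 3). Of 19 markers of recruited and lipid-associated macrophages, 15 were above 0 (median 0.62). edgeR called 0 of them higher and 1, Fabp5, lower, with 5 higher and 1 lower at an unadjusted p under 0.05, 1 and 1 in DESeq2, and 12 and 1 in limma voom. Their summed level was 956 to 2387 CPM in HFD_p53KO and 1211 to 1937 CPM in Control_Rosa26KO, and Gpnmb, a marker of lipid-associated macrophages, ran from 3.09 through 30.4 to 79.1 CPM against 3.11 through 4.14 to 42.1 CPM. The list level of these markers was highest in HFD_p53KO 1, 2, 3 and 4 and Control_Rosa26KO 2, as for the interferon list. The part of these cells in the interferon result was not tested. In bulk liver, fewer cells of a type and less RNA per cell cannot be told apart.

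The interferon-stimulated response element was searched for as GAAANNGAAA on either strand in the same promoter windows. It was found in 3.44% of 32851 promoters, in 61.1% of the 36 promoters matched to 31 of the 43 listed interferon-stimulated genes and in 66.7% of the 9 promoters matched to 7 of the 8 called ones. It was in 8.33% of 288 promoters of all genes called higher and in 1.81% of 386 promoters of those called lower. The motif was chosen after the called genes were known, and the list was drawn up from genes known to respond to interferon. The 3 windows shown end before a RefSeq gene start, with the match in capitals (read on the gene's strand, so TTTC runs are matches on the opposite strand), and show how close to that start it lies.
Gbp7: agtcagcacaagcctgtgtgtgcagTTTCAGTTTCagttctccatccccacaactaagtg
Trim30a: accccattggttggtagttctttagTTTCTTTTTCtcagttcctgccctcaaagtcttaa
Tgtp1: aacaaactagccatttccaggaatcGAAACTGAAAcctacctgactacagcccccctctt
These lie at chr3:142530258-142530317 (plus strand), chr7:104465195-104465254 (minus strand) and chr11:48992289-48992348 (minus strand), and the matches start 53, 36 and 77 bases before the RefSeq start. For Tgtp1 that start lies inside the gene as annotated by GENCODE (chr11:48985327-48994172).

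**Figure D4:**
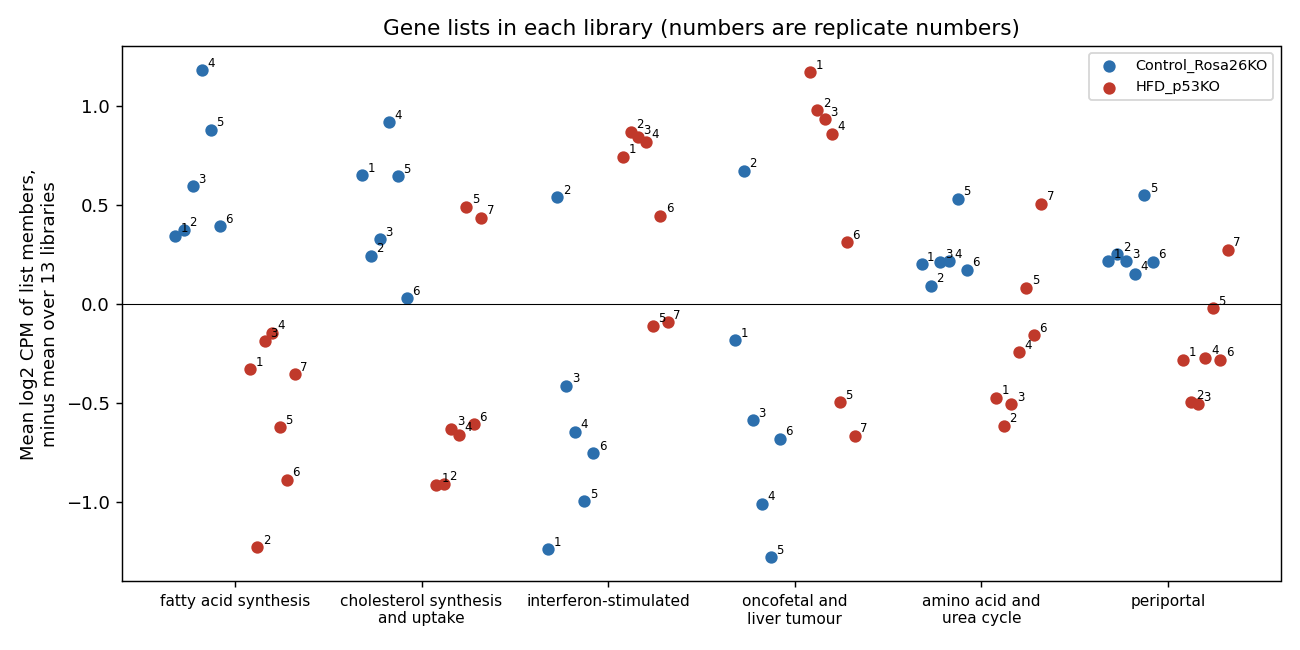
Mean log2 CPM of the tested members of 6 gene lists in each library, minus the mean over the 13 libraries, for Control_Rosa26KO (blue) and HFD_p53KO (red), with replicate numbers beside the points. Fatty acid synthesis separates the groups completely, while Control_Rosa26KO 2 lies high for interferon-stimulated (0.539) and oncofetal (0.671) genes and HFD_p53KO 5 and 7 lie among the controls for cholesterol genes (0.489 and 0.433).

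Some genes of oxidative stress defence and of liver tumours rose. Of 28 NRF2 targets and antioxidant genes, 3 were called higher (10.7%, against 1.94%), 7 were below 0, and the median was 0.17. Nqo1, a quinone reductase, ran from 17.3 through 32.4 to 47 CPM in HFD_p53KO and from 8.89 through 13.1 to 17 CPM in Control_Rosa26KO, without overlap (log2 fold change 1.26, SE 0.30, edgeR adjusted p = 0.0172). Srxn1, a sulfiredoxin, rose by 1.36 (SE 0.30, edgeR adjusted p = 0.0131).

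Cbr3, a carbonyl reductase held by both the antioxidant and the oncofetal list, rose from a median of 0.791 CPM (0.427 to 5.61) to 16.5 CPM (2.05 to 37.6), a log2 fold change of 3.3 (SE 0.72, edgeR adjusted p = 0.0118). Of 18 oncofetal and liver tumour genes, 3 were called higher (16.7%), Cbr3, Ly6d and Anxa2, and the list's median was 0.84. The count was 6 without Control_Rosa26KO 2 and 5 without HFD_p53KO 7, and 1 without any 1 of the other libraries except HFD_p53KO 5. Ly6d, a surface antigen, ran from 8.09 through 100.3 to 142 CPM against 2.21 through 2.85 to 42 CPM (log2 fold change 3.18, SE 0.93, edgeR adjusted p just under 0.05). HFD_p53KO 5 (12.6) and 7 (8.09) were low and Control_Rosa26KO 2 held the 42, and the Ly6d call was lost in 13 of 22 alternatives.

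Sprr1a, an epithelial cross-linking protein and one of the largest rises, had the same distribution. It was at most 0.174 CPM in 5 control libraries and 6.1 in Control_Rosa26KO 2, and between 0.185 (HFD_p53KO 7) and 52.1 CPM in HFD_p53KO (log2 fold change 4.40, SE 1.07, edgeR adjusted p = 0.0209). Of 33 proliferation genes, 30 were above 0, with a median log2 fold change of 0.44, but edgeR called 0. At an unadjusted p under 0.05, 0 were higher and 1 lower, with 1 lower in DESeq2, and 24 higher and 1 lower in limma voom. Their summed level was 151.9 to 345.9 CPM in HFD_p53KO and 154.5 to 383.8 CPM in Control_Rosa26KO. Control_Rosa26KO 2 held the 383.8, and HFD_p53KO 7 the 151.9.

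Some hepatocyte genes fell. Alb, the main secreted liver protein, ran from 36511 through 51215 to 87316 CPM in HFD_p53KO and from 72123 through 109507 to 130670 CPM in Control_Rosa26KO. Only HFD_p53KO 5 (87316) reached the control range. The log2 fold change was -0.97 (SE 0.25, edgeR adjusted p = 0.0301), called in 12 of 22 alternatives. Of 18 hepatocyte markers 16 were below 0, and Alb and Ass1 were called (11.1%, against 2.67%). Other hepatocyte lists differed in their medians. Pericentral genes were at 0.047 (2 of 20 called lower, 10%), conjugation enzymes at 0.033 (2 of 41 called lower, 4.88%) and complement and coagulation genes at -0.038. Apolipoprotein and VLDL genes were at -0.32, carboxylesterases at -0.27, gluconeogenesis and insulin signalling genes at -0.26 and male-biased genes at -0.59.

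Amino acid and urea cycle genes fell in part. Of 41 tested, 5 were called lower (12.2%, against 2.67%), 33 were below 0, and the median was -0.33. Hal, which degrades histidine, ran from 78.2 through 127 to 266 CPM against 295 through 414 to 492 CPM, without overlap (log2 fold change -1.41, SE 0.30, edgeR adjusted p = 0.00939). Cps1, the entry enzyme of the urea cycle, ran from 818 through 1076 to 2662 CPM against 1821 through 2657 to 3308 CPM (log2 fold change -0.97, SE 0.26, edgeR adjusted p = 0.0359). The others were Ass1 (-1.06), Gls2 (-1.04) and Gnmt (-0.95). HFD_p53KO 7 held the highest Cps1 of its group, and without that library 17 of the 41 were called. Without Control_Rosa26KO 3 it was 2, without HFD_p53KO 5 it was 3, and without any 1 of Control_Rosa26KO 1, 4, 5 and 6 or HFD_p53KO 1, 2, 3, 4 and 6 it was 1. Hal, Cps1, Ass1 and Gls2 are also the 4 calls among 18 periportal genes (22.2%, against 2.67%), which mark hepatocytes near the portal vein, and that count fell to 1 or 2 without 10 of the 13 libraries in turn.

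Some endothelial markers fell. Of 25 tested, 4 were called lower (16%, against 2.67%), and 19 were below 0, while 2 were called without Control_Rosa26KO 4, HFD_p53KO 3 or HFD_p53KO 4. Without the libraries high in acute phase genes (Control_Rosa26KO 1, HFD_p53KO 2 and HFD_p53KO 7), 1 was called, and the median within the stretches of library numbers was 0.058, -0.77 and -0.48. Summed endothelial markers were 357 to 1010 CPM in HFD_p53KO and 688 to 1120 CPM in Control_Rosa26KO. Ehd3, a membrane-trafficking protein of sinusoidal endothelium, ran from 30.9 through 42.5 to 53.3 CPM against 67.4 through 77.6 to 101 CPM (log2 fold change -0.97, SE 0.17, edgeR adjusted p = 0.00311). Clec4g, a sinusoidal lectin, fell from a median of 46.3 CPM (34.8 to 68.5) to 25.9 CPM (20 to 35), a log2 fold change of -0.86 (SE 0.19, edgeR adjusted p = 0.0114). Bmp2 (-0.72) and Ptprb (-0.61) were the others. The defining endothelial marker Stab2 was present in all libraries, at 33.3 to 70.4 CPM in HFD_p53KO and 36.4 to 61 CPM in Control_Rosa26KO. Bmp6 (-0.74), an endothelial signal that sets hepcidin, was also lower.

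Cytochrome P450 genes split by member. Of 40 family 2 and 3 genes, 2 were called higher and 4 lower (5% and 10%, against 1.94% and 2.67%), and 0 or 1 was called higher without 9 of the 13 libraries in turn. Cyp2b10, the classical target of the xenobiotic receptor CAR, ran from 0.123 through 0.490 to 1.97 CPM in HFD_p53KO and from 3.11 through 9.75 to 17.3 CPM in Control_Rosa26KO, without overlap (log2 fold change -3.60, SE 0.63, edgeR adjusted p = 0.00304). Its female-predominant paralog Cyp2b13 went up, from a median of 0.612 CPM (0 to 2.74) to 19.5 CPM (0.185 to 42.2), the largest rise of all named genes (log2 fold change 4.47, SE 1.13, edgeR adjusted p = 0.0257). HFD_p53KO 7 was at the control level, and limma voom gave Cyp2b13 an adjusted p of 0.0791.

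Cyp2a4, another female-predominant enzyme, rose from a median of 26.5 CPM (8.57 to 68) to 177 CPM (35.4 to 195), a log2 fold change of 2.10 (SE 0.56, edgeR adjusted p = 0.0333, called in 13 of 22 alternatives). These were the 2 called of 27 female-biased liver genes (7.41%, against 1.94%). At an unadjusted p under 0.05, 5 of the 27 were higher and 4 lower, and DESeq2 called 5 higher and 2 lower. Of the 27, 16 were above 0, with a median log2 fold change of 0.27. Of 22 male-biased genes, 18 were below 0, with a median of -0.59. edgeR called 0 of them, with 5 lower at an unadjusted p under 0.05, 0 in DESeq2 and 9 in limma voom. Cyp2c29 (-1.63) and Cyp2c55 (-2.03) fell, and reads of close Cyp2a, Cyp2b and Cyp2c paralogs may be shared in these counts.

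Ces2a, a carboxylesterase of drug and lipid ester hydrolysis, ran from 63.7 through 111 to 137 CPM against 255 through 367 to 402 CPM (log2 fold change -1.77, SE 0.23, edgeR adjusted p = 0.000158). Dio1, which activates thyroid hormone, was far higher in every HFD_p53KO library (91.8 through 134 to 265 against 11.2 through 21.1 to 38.7 CPM, log2 fold change 2.69, SE 0.46, edgeR adjusted p = 0.00249). Igfbp2, a circulating IGF-binding protein, fell by 1.99 on the log2 scale (SE 0.49, edgeR adjusted p = 0.021).

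The fall of smallest p was of moderate size. Epb41l5, a membrane scaffold protein, fell from a median of 39 CPM (34.7 to 42.2) to 22.6 CPM (21.1 to 26), a log2 fold change of -0.72 (SE 0.08, edgeR adjusted p = 9.55e-05). It was called in all 22 alternatives, as were Fam107b (0.82), Tulp4 (0.50) and Arel1 (0.61) among the rises. Among the largest falls, Chrna4, a nicotinic receptor subunit, dropped by 3.55 on the log2 scale, from 68.7 to 257 CPM to 3.13 to 14.7 CPM. Adgrf1, an adhesion receptor, dropped by 3.53, and Nat8f7, an acetyltransferase-family gene at most 6.89 CPM in controls and 0.307 CPM in HFD_p53KO, had the largest fall (-5.00). Among the large rises, Themis, known from T cells, went from 0.663 to 2.36 CPM to 2.72 to 19.6 CPM without overlap (log2 fold change 2.92), and Rad51b, a DNA repair gene, rose by 2.29. The non-coding RNAs Rpph1 (-3.50) and Rmrp (-3.12) also fell, but both are RNAs without a poly(A) tail in libraries made from poly(A) RNA, at 10.1 CPM or less.

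The combined difference is the sum of a diet step (HFD_Rosa26KO over Control_Rosa26KO) and a genotype step on HFD (HFD_p53KO over HFD_Rosa26KO). These contrasts share samples with the combined one and are given only side by side. The diet step alone had 213 calls (1.51%), and diet within p53KO had 405 (2.87%). The genotype step had 0 calls in edgeR both on HFD (0%, 509 genes at an unadjusted p under 0.05, 1 in DESeq2, 0 in limma voom) and on control diet (0%, 1408 unadjusted, 1 in DESeq2, 0 in limma voom). Over the 274 genes called higher, the median diet step was 0.40 and the median genotype step on HFD 0.12. Over the 377 called lower these were -0.58 and -0.10.

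The lists differed in how their combined change was divided. For cholesterol genes the median diet step was -0.90 and the genotype step on HFD 0.15, and for fatty acid synthesis -0.88 and -0.37. For interferon-stimulated genes they were 0.63 and 0.32. The periportal list had a diet step of -0.13 and a genotype step of -0.23, and the endothelial list 0.070 and -0.37. The combined change can also be divided into genotype on control diet and diet within p53KO, and the split then differed. That genotype step was -0.10 and that diet step -0.50 for periportal genes, and 0.041 and -0.39 for endothelial genes. For interferon-stimulated genes they were -0.051 and 1.13, for cholesterol genes -0.14 and -0.52, and for fatty acid synthesis -0.39 and -0.66. No genotype step of a member passed the test, so these are descriptions.

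Single genes show the range. Ces2a had a diet step of -2.03 (SE 0.24) and a genotype step of 0.26 (SE 0.23), and Plin4 of 2.46 (SE 0.33) and -0.31 (SE 0.30). Pnpla3 was split nearly evenly, at -1.64 (SE 0.61) and -1.51 (SE 0.59). Trp53 had a diet step of 0.01 and a genotype step of -0.51 (SE 0.14), and its genotype difference was -0.61 (SE 0.15) on control diet.

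Beside Trp53, the smallest genotype p-values on HFD among called genes belonged to genes of small change, such as Arel1 and Zfp746. Arel1, an apoptosis-resistance ubiquitin ligase, had means of 55.6 ± 5.19 CPM in Control_Rosa26KO, 68.9 ± 7.18 in HFD_Rosa26KO, 58.7 ± 6.58 in Control_p53KO (SD, n = 6 each) and 84.9 ± 12.5 in HFD_p53KO (SD, n = 7). Its genotype step on HFD was 0.30 (SE 0.095) and did not pass the adjusted threshold. Zfp746 was at 27.8 ± 2.66, 27.3 ± 2.67, 25.1 ± 2.72 and 33.9 ± 3.47 CPM in the same order, so that only HFD_p53KO was raised in its means. The combined call of Zfp746 was kept in 8 of 22 alternatives.

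Whether the combined change departed from the sum of the single changes was tested by the interaction. It had 0 calls in edgeR (0%, 1221 genes at an unadjusted p under 0.05), 0 in limma voom and 5 in DESeq2 (Rogdi, Zfp64, Ltf, Ngp and Mpo), none of which was called in the combined comparison. Among called genes, Kdf1 and Slc7a4 had the smallest interaction p. Kdf1 was at 6.80 ± 0.610 CPM in Control_Rosa26KO, 3.67 ± 0.711 in HFD_Rosa26KO, 4.22 ± 1.49 in Control_p53KO (SD, n = 6 each) and 4.51 ± 0.511 in HFD_p53KO (SD, n = 7): either change alone went with a lower level, and both together with no lower one. Slc7a4 was also highest in Control_Rosa26KO, at 2.92 ± 0.397, 1.74 ± 0.413, 1.38 ± 0.390 and 1.79 ± 0.432 CPM in the order given for Kdf1. The edgeR adjusted p of the interaction was 0.462 for both. In the combined comparison Kdf1 was called in 9 of 22 alternatives and Slc7a4 in 10. Slc7a4 was also the gene that DESeq2 called for genotype on control diet (log2 fold change -1.08, DESeq2 adjusted p = 0.00193).

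**Figure D5:**
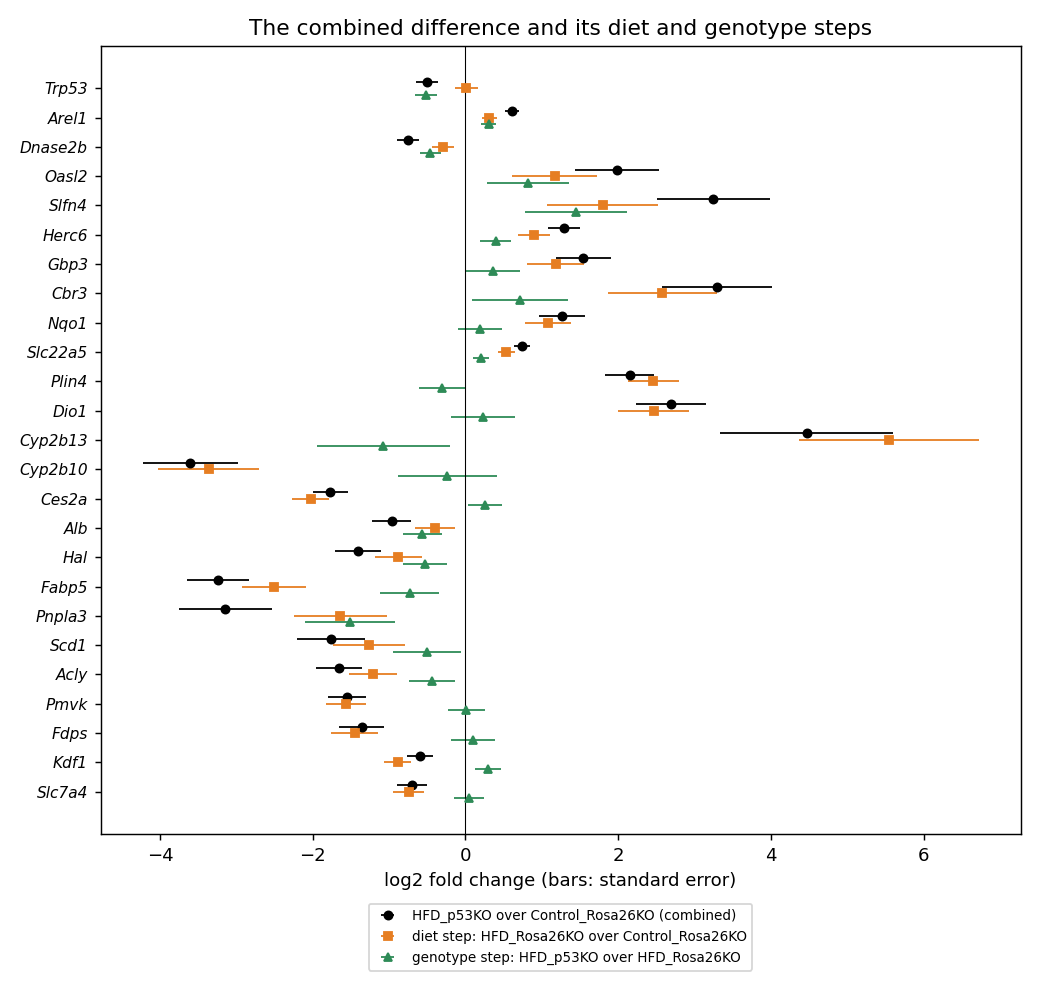
log2 fold changes with standard errors for 25 named genes in the combined comparison (black), in the diet step of Rosa26KO (orange) and in the genotype step on HFD (green). The black value is the sum of the orange and green values by construction. For most lipid genes the diet step is the larger part (Pmvk -1.56 against 0.01), while for Trp53 it is the genotype step (-0.51 against 0.01).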

How the data were processed

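Liver polyA RNA was sequenced as paired reads, per the labels' protocols. The authors deposited 1 table of raw read counts per gene symbol for 25 libraries. STAR, HOMER and the build GRCm38/mm10 are named, without roles or versions, per the submitters' processing notes. The annotation, the strand setting and the handling of multiply mapping reads are not known, so counts of overlapping or near-identical genes are uncertain. Groups were read from the labels.

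filterByExpr (minimum count 10, minimum total 15) and TMM were applied in edgeR 4.0.16, and a robust quasi-likelihood model with 1 mean per group was fitted to all 25 libraries. Alternatives used RLE scaling, no filter, DESeq2 1.42.0, voom with sample quality weights in limma 3.58.1, non-robust dispersion, the compared groups only, a replicate or library-number term, and libraries left out. The procedure was tested on simulated data. CPM errors are SD. Positions are from GENCODE M21, and promoter sequences from RefSeq (GRCm38.p6).

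Genes named by rule had a mean of at least 1 CPM and a call: the 10 largest rises and falls, the 5 of smallest p in each direction, up to 4 members per list with at least 3 calls, the 5 of smallest p in each genotype and interaction contrast, and other called members of lists, with Trp53, Cdkn1a and Mdm2 always eligible. Not all eligible genes are described. Uncalled list members named beside them, and the 3 stretches of library numbers, were chosen after their values were seen. The comparison, the 49 lists and the rules were chosen with earlier results of these data known. Some results are not reported here.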

Additional observations from a re-analysis of the deposited data

Results flagged for a closer look

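In 100 groups of 6 or 7 values, 12 had a highest or lowest value whose gap to the nearest exceeded 0.625 (6 libraries) or 0.568 (7 libraries) of the range, the 95% critical values of Dixon's test, which chance exceeds in about 1 in 20 groups. Control_Rosa26KO 2 accounted for 6 of them. It stood above the other 5 controls for Sprr1a (6.1 against at most 0.174 CPM), Ly6d (42 against at most 5.41 CPM), Oasl2 (166 against at most 37.8 CPM), Ubd (11.2 against at most 4.18 CPM) and Cdkn1a (88.9 against at most 36.6 CPM), and for the first principal component (20.7 against at most -15.6). In each gene its value lay within the range of the HFD_p53KO libraries.

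Control_Rosa26KO 4 stood above the other controls for Acly (1551 against at most 993 CPM) and Pnpla3 (201 against at most 75.1 CPM). Control_Rosa26KO 1 did so for Kdf1 (7.98 against at most 6.77 CPM). In HFD_p53KO, library 5 was the highest for Alb (87316 against at most 55674 CPM) and library 7 for Cpt1a (679.6 against at most 521 CPM). For Ecm1, HFD_p53KO 7 was the lowest of its group at 44.4 CPM.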

How the results depend on the processing

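The combined count of 651 calls was 658 with RLE scaling, 660 without robust dispersion, 480 without a filter and 458 in the 2 groups alone. It moved further in DESeq2 (1071, with 479 higher and 592 lower), limma voom (4050, 2018 and 2032), with library numbers as a term (1074, 459 and 615) and without the libraries high in acute phase genes, Control_Rosa26KO 1, HFD_p53KO 2 and HFD_p53KO 7 (413, 151 higher). With each library left out it ran from 326 to 1288 (higher 106 to 551, lower 209 to 737). All 651 genes were among the calls of DESeq2 and of the fit with library numbers, 644 among those of limma voom and 390 among those of the 2 groups alone.

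The diet step in Rosa26KO (213) was 615 in DESeq2, 3038 in limma voom, 442 with library numbers and 93 to 509 with each library left out. In p53KO (405) it was 907, 2189, 633 and 173 to 592. DESeq2 called 1 gene for genotype on each diet and 5 for the interaction, and the exact test of Mdm2 gave p between 0.0303 and 0.1881 with each library left out, while for Cdkn1a the direction reversed without HFD_p53KO 1 (-0.018, exact permutation p = 0.9762). Without Control_Rosa26KO 2 the Cdkn1a log2 fold change was 0.7786 (exact permutation p = 0.2437).

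Same-numbered libraries deviated together for numbers 2, 3 and 5 (correlations of 0.4, 0.15 and 0.53) and not for the other numbers (-0.089 to -0.043), and 2 of 6 were best matched by their own number, so the numbers were not taken as pairs. A replicate block gave 1615 calls (707 higher, 908 lower), and 549 and 785 for diet in Rosa26KO and p53KO, with 638 of the 651 among the 1615. Number 7 occurs only in HFD_p53KO, so the block gave that library its own term and took it out of the group comparison. Without HFD_p53KO 7 and with no block the count was 1288.

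Of 2262 alternative values for 103 called named genes, 1828 kept the call, 434 lost it and 0 changed sign. Depth of 16611754 counts or more per library leaves genes under 1 CPM with few reads.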

Other observations

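Several further programmes had 0 calls in edgeR. Oxidative phosphorylation genes were lower in 37 of 38 members by a small amount (median log2 fold change -0.20), with 0 called in edgeR, 9 lower at an unadjusted p under 0.05, 1 lower in DESeq2 and 11 lower in limma voom. Gluconeogenesis and insulin signalling genes were below 0 in 21 of 26 members. They had a median of -0.26 and 0 calls in edgeR (1 higher and 4 lower unadjusted, 2 lower in DESeq2, 4 lower in limma voom). Their summed level had a median of 5136 CPM (4499 to 10250) in HFD_p53KO and 7024 CPM (6258 to 8338) in Control_Rosa26KO. Triglyceride synthesis genes, which act after fatty acid synthesis, had a median of 0.057 and 0 calls in edgeR (2 higher and 2 lower unadjusted, 0 in DESeq2, 2 and 2 in limma voom).

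Of 27 bile acid synthesis, transport and FXR genes, 1 was called higher and 1 lower (3.7% each, against 1.94% and 2.67% of all genes). Abcb4, the phospholipid exporter, rose from a median of 199.6 CPM (124 to 223) to 300.3 CPM (185 to 358). Abcb11, the bile salt exporter, fell from a median of 523 CPM (359 to 708) to 339 CPM (221 to 488). The log2 fold changes were 0.62 (SE 0.17, edgeR adjusted p = 0.034) and -0.68 (SE 0.18, edgeR adjusted p = 0.0345), and both ranges overlapped. Abcb4 was called in 14 of 22 alternatives and Abcb11 in 12. Atf4, the transcription factor of the integrated stress response, fell by 0.37 on the log2 scale (SE 0.10, edgeR adjusted p = 0.0286).

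The stellate cell list held 2 calls of 19 (10.5%, against 2.67% lower among all genes), Ecm1 (-0.81) and Vipr1 (-0.60). Ecm1, a secreted matrix protein, ran from 44.4 through 94.7 to 113 CPM in HFD_p53KO and from 134 through 162 to 216 CPM in Control_Rosa26KO, without overlap. Matrix and collagen genes had a median of 0.26 and 0 calls in edgeR (3 higher at an unadjusted p under 0.05, 0 in DESeq2, 9 in limma voom).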
